A study of Mus musculus with 4 samples.

Results

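C2C12 is a mouse myoblast line. Its cells divide while they are undifferentiated, and on differentiation they leave the cell cycle, switch on myogenin, fuse and build sarcomeres. MyoD and Myf5 mark the myoblast, myogenin (Myog) marks the step into differentiation, and the sarcomeric actins, myosins and troponins mark the myotube. The data were 4 one-colour Agilent arrays of total RNA from this line, which covered 2 experiments with 1 siFxr1 and 1 siControl culture in each. siFxr1 is a small interfering RNA against Fxr1, the gene of an RNA-binding protein of the fragile X family, and siControl is the control siRNA. The methods of the study give 48 hours between transfection and analysis, so all 4 cultures had been transfected with an siRNA and no untransfected culture was analysed here.

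The comparison described here was experiment 1 against experiment 2, with all 4 of the 4 arrays used and chosen by the experiment number in their descriptions. Experiment 1 was siFxr1 and siControl on the first slide, and experiment 2 was siFxr1 and siControl on the other slide. Experiment and slide cannot be told apart. The RNA integrity number was 8 for siFxr1 in experiment 1 and 9 for the other 3 arrays. Each experiment held 1 culture of each condition, so an experiment is 2 arrays that differ in their siRNA, and a p-value here measures how closely the difference repeated in both conditions, and not how far further experiments would vary. An exact permutation test of 2 arrays against 2 cannot give a two-sided p below 0.333, so the tests below are limma's, fitted across all probes with the condition as a block. The sources used here do not say whether serum, density or passage differed between the experiments.

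The cultures of experiment 1 had higher signals of the myotube genes than those of experiment 2, in siFxr1 and in siControl alike. All values are log2 of the quantile-normalized array signal, and a difference of 1 is 2-fold. Myog, the myogenic factor that starts terminal differentiation, gave 15.51 (siFxr1) and 15.64 (siControl) in experiment 1, against 13.42 and 13.50 in experiment 2. Both arrays of experiment 1 were above both of experiment 2, by 2.12 ± 0.24 on the log2 scale (SE, 2 arrays per experiment, limma adjusted p = 0.0077), or 4.33-fold. Acta1, the skeletal actin, stood at 16.09 and 16.10 in experiment 1 and at 14.08 and 14.26 in experiment 2, a difference of 1.92 (limma adjusted p = 0.0093).

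Actc1, the actin of heart and of embryonic skeletal muscle, gave 15.51 (siFxr1) and 16.03 (siControl) in experiment 1, against 12.67 and 14 in experiment 2. The difference was 2.44 ± 0.30 (SE, limma adjusted p = 0.0090). Myh3, the embryonic myosin heavy chain, was read by 2 probes, of which the brighter gave 15.64 and 16.20 in experiment 1 and 13.64 and 14.34 in experiment 2. Its probes differed by 1.93 and 1.74 between the experiments. Tnnt2, the troponin T of early muscle and heart, gave 16.05 and 15.55 in experiment 1 and 14.67 and 13.38 in experiment 2, a difference of 1.77 (limma adjusted p = 0.019). For each of these 5 genes the lowest array of experiment 1 was above the highest of experiment 2.

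The genes that mark the myoblast itself moved less. Myod1, the factor that commits cells to the muscle lineage, stood at 13.77 and 13.93 in experiment 1 and at 13.07 and 13.80 in experiment 2. Its arrays overlapped, and the difference of 0.41 did not pass the test (limma adjusted p = 0.320). Des, the muscle intermediate filament desmin, gave a difference of 0.22 (limma adjusted p = 0.573). Cdh15, the cadherin that joins myoblasts, was higher by 0.97 in experiment 1 (limma adjusted p = 0.049). The values for Pax7, the satellite cell factor, and Itga7, a laminin receptor, were 0.10 and 0.09, and Vcam1, an adhesion molecule, gave 0.62, with none of the 3 past the test. Myf5 was not well above background on any array.

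**Figure D1:**
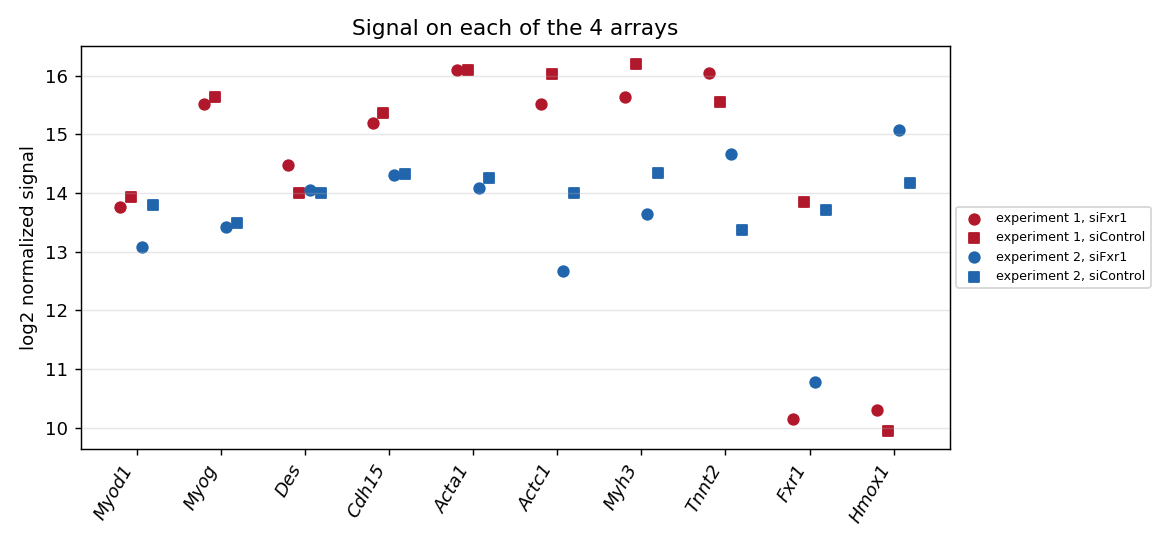
Log2 normalized signal (vertical axis) of 10 genes on each of the 4 arrays, with experiment 1 in red, experiment 2 in blue, siFxr1 as circles and siControl as squares, 1 point per array. Myog, Acta1, Actc1, Myh3 and Tnnt2 sit higher in experiment 1 in both conditions, Fxr1 separates the conditions and not the experiments, and Hmox1 sits higher in experiment 2.

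Fxr1 itself checked the labels of the conditions. It stood at 10.16 and 10.77 in the siFxr1 arrays of experiments 1 and 2, and at 13.85 and 13.71 in the siControl arrays. Both siFxr1 arrays were far below both siControl arrays, and the difference between the experiments of -0.24 did not pass the test (limma adjusted p = 0.586). Cdkn1a, the p21 inhibitor of cyclin-dependent kinases that the study followed, was read by 3 probes that did not move one way. The brightest gave 15.52 (siFxr1) and 15.44 (siControl) in experiment 1, against 15.04 and 13.33 in experiment 2, a difference of 1.29 that did not pass the test (limma adjusted p = 0.098). A dimmer probe was lower in experiment 1 by 1.31 on the log2 scale, as the fitted value of -1.31 shows (limma adjusted p = 0.023), and the remaining probe gave -0.91 (limma adjusted p = 0.114).

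Across the array, 5035 of 28011 tested probes were called between the experiments, or 18%, with 2109 higher in experiment 1 (7.53%) and 2926 lower (10.4%). A probe was tested when it was well above background on at least 2 of the 4 arrays, and called at a limma adjusted p under 0.05; the unadjusted p was under 0.05 for 9979 probes, or 35.6%. Read at the brightest probe of each gene, 1835 of 14943 genes were called, or 12.3%, of which 945 were higher in experiment 1 (6.32%) and 890 lower (5.96%). The first principal component held 67.3% of the variance and separated the experiments, and the second held 23.4%. Over probes, the correlation between the siFxr1 and siControl arrays was 0.982 within experiment 1 and 0.978 within experiment 2, and between the experiments it was 0.958 for siFxr1 and 0.952 for siControl. In experiment 1 45.4% (siFxr1) and 45.9% (siControl) of all probes were well above background, and in experiment 2 52.9% and 49.7%. Before normalization the median spot signal was 21.98 (siFxr1) and 24.98 (siControl) in experiment 1, against 44.98 and 40.81 in experiment 2. What this gap adds to the calls was not tested. Of the called probes, 1114 had no array above background in experiment 1, and 197 had none in experiment 2. With an array left out the condition could not be kept in the model. The count of called probes was then 0 without siFxr1 or without siControl of experiment 1 and 0 without siControl of experiment 2, and 812 without siFxr1 of experiment 2. With all 4 arrays, the count was 1987 with the condition left out of the model, 8942 under 75th percentile scaling, and 0 with no filter on dim probes, when 11166 of 55627 probes had an unadjusted limma p under 0.05.

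The difference was also read within each condition, where it rests on 1 array against 1. Across genes the siFxr1 and siControl differences correlated at 0.69 over 14943 genes, which share slides and probes and are not independent replicates, and 74.8% of the genes had the same sign in both. At least 2-fold in the same direction in both conditions were 1364 genes, or 9.13%, with 708 higher (4.74%) and 656 lower (4.39%) in experiment 1. The median difference of all tested genes was 0.05, and it became 0.23 when the arrays were scaled to their 75th percentile in place of quantile normalization.

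**Figure D2:**
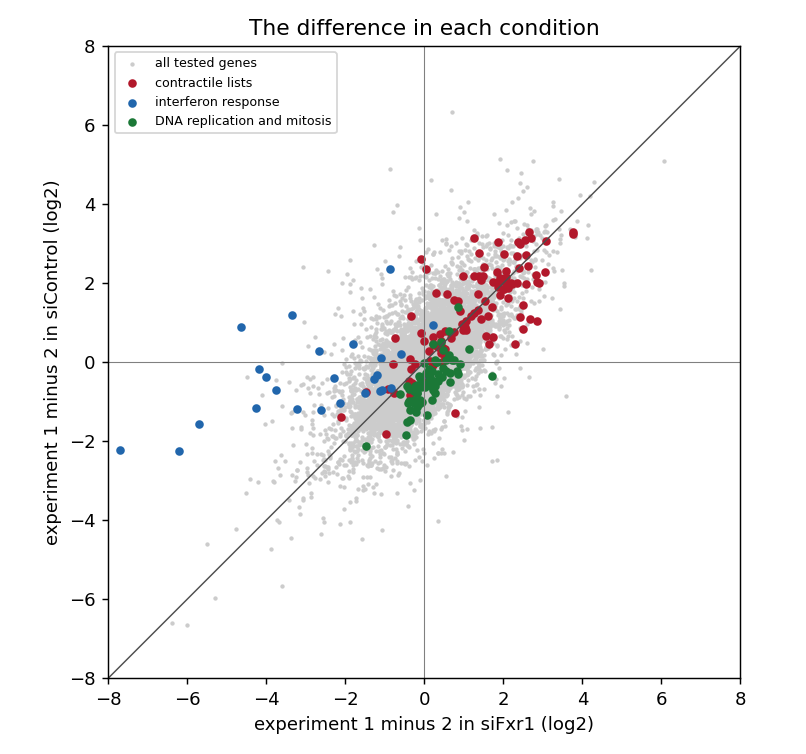
Experiment 1 minus experiment 2 on the log2 scale within siFxr1 (horizontal axis) and within siControl (vertical axis), 1 point per tested gene, with the diagonal marking equal differences. Most genes of the contractile lists (red) lie along the diagonal above 0, with medians of 1.31 in siFxr1 and 1.27 in siControl, while the interferon list (blue) lies further below 0 in siFxr1, with medians of -2.20 and -0.41, and DNA replication and mitosis genes (green) have medians of 0.15 and -0.47, with a fitted median of -0.17 that became 0.21 under 75th percentile scaling.

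The contractile apparatus was described with 4 lists that together held 125 genes, of which 112 were tested and 13 were not well above background on 2 arrays. Of the 112, 60 were higher in experiment 1, 2 were lower and 50 did not pass the test, against 6.32% of all genes called higher. Their median difference was 1.26, beside 0.05 for all genes. At least 2-fold higher in both conditions were 56 of them, and 1 was at least 2-fold lower in both. With the condition left out of the model 35 of the 112 were higher, and with no filter on dim probes 0 were called while the median was 1.20. In bulk RNA, fewer differentiated cells and less of these RNAs per cell cannot be told apart.

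Thick filament genes, which encode the myosins and their binding proteins, were higher for 16 of 21 tested members and lower for 0, with a median of 1.93. This was 76.2% called against 12.3% of all genes. Mylpf, the fast regulatory light chain, gave 9.98 and 9.50 in experiment 1 and 6.23 and 6.2 in experiment 2, a difference of 3.53 ± 0.26 (SE, limma adjusted p = 0.0054). Myh1, an adult fast heavy chain, gave 11.63 and 11.54 against 7.85 and 8.30, a difference of 3.51. These 2 had the highest differences of the list, followed by the M-band protein Myom1 at 3.07 and the myosin chaperone Unc45b at 2.71. Myh2 and Myl2 were not well above background on enough arrays to be tested, and Myl3 gave -0.26 (limma adjusted p = 0.746).

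Thin filament genes, the actins, troponins and tropomyosins, were higher for 15 of 21 tested members and lower for 0, with a median of 1.92. The share called was 71.4%, against 12.3% of all genes. Tnnc2, the fast calcium sensor, stood at 16.77 and 17.23 in experiment 1 and at 14.41 and 14.20 in experiment 2, a difference of 2.70 (limma adjusted p = 0.0066). Tnni2, the fast inhibitory troponin, differed by 2.64, and the filament-length protein Lmod2 by 2.82. Klhl40, which stabilizes nebulin and Lmod3, differed by 2.45. The tropomyosin gene Tpm1 differed by 2.03 at its brightest probe, but only 2 of its 5 probes had that sign.

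Z disc and costamere genes, which anchor thin filaments and join the sarcomere to the membrane, were higher for 15 of 39 tested members and lower for 1, with a median of 1.02. In all 41% were called, against 12.3% of all genes. Hspb3, a small heat shock protein of muscle, stood at 9.51 and 9.67 in experiment 1 and at 6.85 and 6.38 in experiment 2, a difference of 2.97. Csrp3, the muscle LIM protein, differed by 2.53, Tcap, the titin cap, by 2.46 and Myoz1 of the Z disc by 2.20, with 1 array of experiment 2 above background. The laminin chain gene Lama2 moved the other way, at 11.44 and 11.55 in experiment 1 and 13.54 and 12.94 in experiment 2, a difference of -1.74 (limma adjusted p = 0.018). Actn2, the main Z disc actinin, gave 1.67 and missed the test (limma adjusted p = 0.055).

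Excitation-contraction coupling genes, which turn membrane depolarization into calcium release, were higher for 14 of 31 tested members and lower for 1, with a median of 1.15. Called were 48.4% of them, against 12.3% of all genes. Trdn, the triadin of the release complex, gave 11.03 and 11.75 in experiment 1 and 8.33 and 8.61 in experiment 2, a difference of 2.92 ± 0.26 (SE, limma adjusted p = 0.0056). The calcium buffer Pvalb differed by 2.67, the potassium channel Kcnn3 by 2.52 and the histidine-rich calcium-binding protein Hrc by 2.39. Cacna2d1, an auxiliary calcium channel subunit, was lower in experiment 1, with a difference of -1.40 (limma adjusted p = 0.035), while Cacna1s, the channel subunit that senses voltage, was higher by 2.11.

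**Figure D3:**
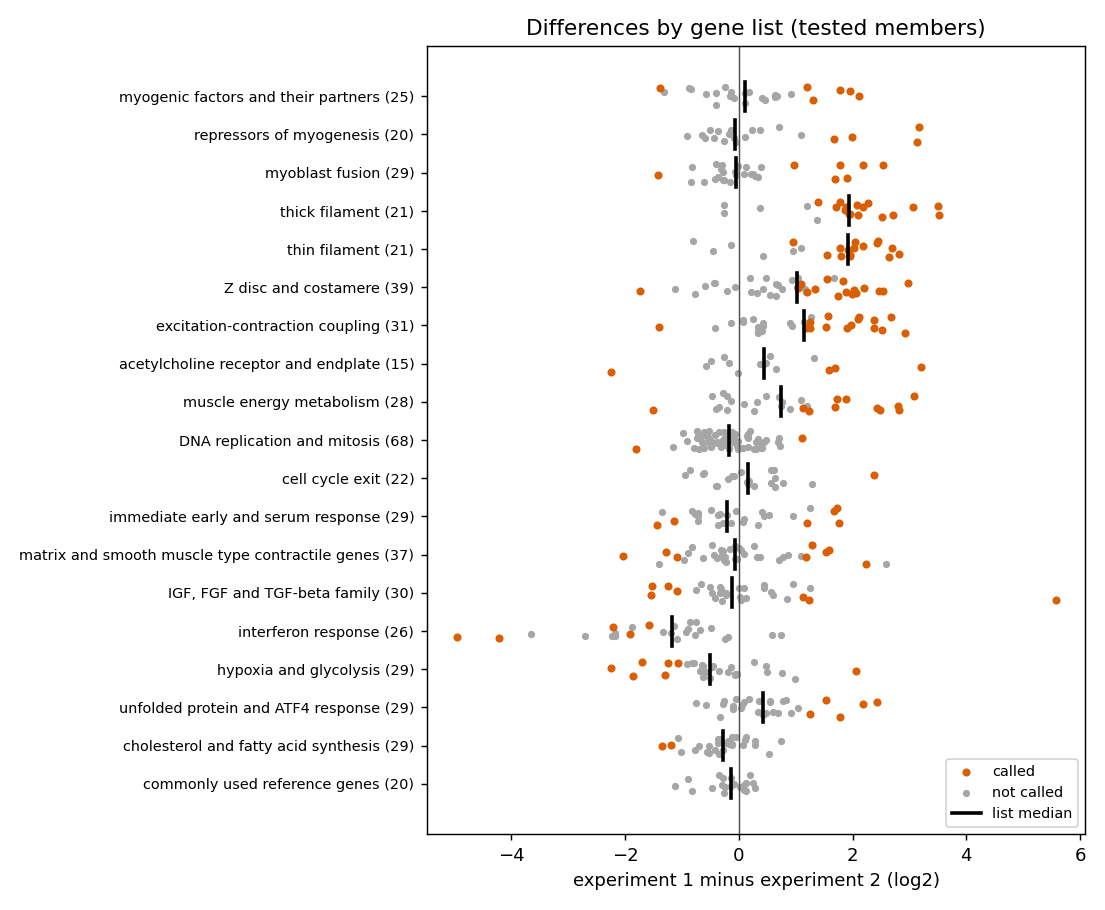
Experiment 1 minus experiment 2 on the log2 scale (horizontal axis) for the tested members of 19 gene lists, with 1 point per gene, orange where called at a limma adjusted p under 0.05, the list median as a black bar and the number tested in parentheses. The thick and thin filament lists have medians of 1.93 and 1.92, and the median of 20 commonly used reference genes was -0.14, which became 0.26 under 75th percentile scaling.

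The isoforms of the sarcomere were read by the stage or fibre type in which they are known to be used. All 6 listed embryonic and early isoforms were called higher in experiment 1, by 1.69 to 2.51. The lowest of them, Chrng, is an acetylcholine receptor subunit and not a sarcomere protein. Myh3, Actc1 and Tnnt2 among them are label markers already given above. Of 9 adult fast isoforms, 7 were called higher, by 1.88 to 3.53. Of 7 slow isoforms, 4 were called higher, by 1.55 to 2.27. Over all genes, 6.32% were called higher. Among the other isoforms, Actn3 gave 0.76, Myh7b 1.37 and Myl3 -0.26, none past the test, and Myh2 and Myl2 were not tested. Whether the groups differ was not tested. Myh7, the slow heavy chain, gave 11.13 (siFxr1) and 9.53 (siControl) in experiment 1, against 8.56 and 7.56 in experiment 2. Its arrays did not overlap between the experiments, at a difference of 2.27. Myh4, another adult fast heavy chain, gave 11.62 and 8.49 in experiment 1 and 8.76 and 7.46 in experiment 2, so that siControl of experiment 1 lay below siFxr1 of experiment 2. It was called at a difference of 1.95 with the condition as a block (limma adjusted p = 0.046). The myosin heavy chain genes are close in sequence, and whether a probe reads a neighbouring isoform was not tested.

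**Figure D4:**
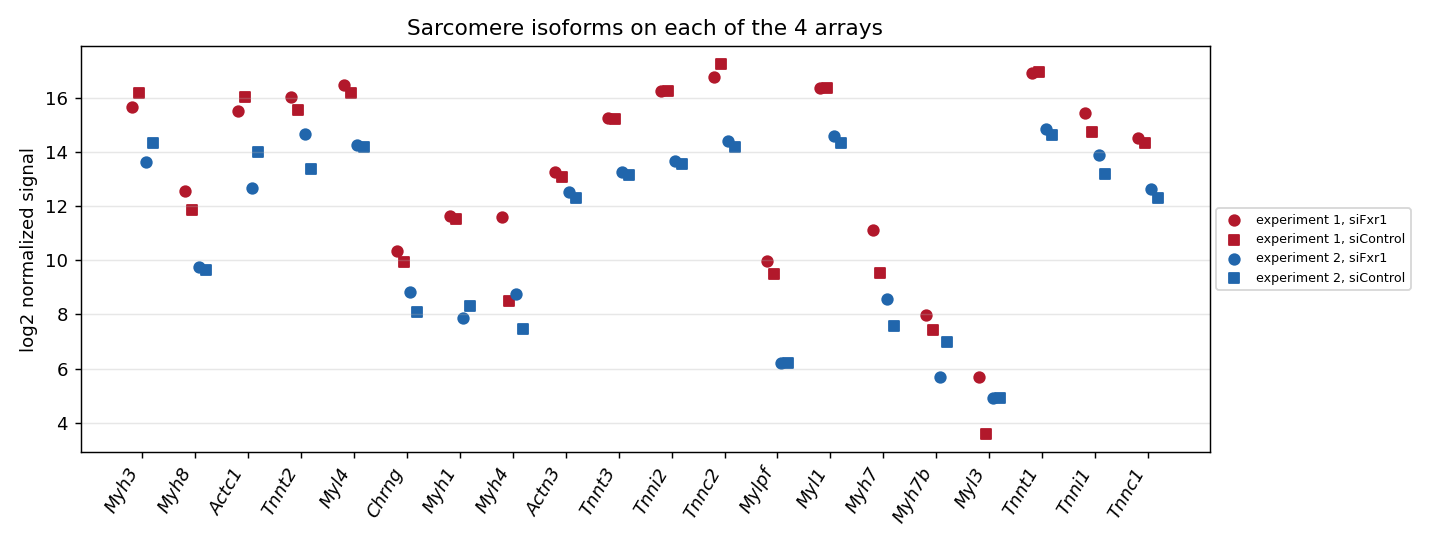
Log2 normalized signal (vertical axis) of the sarcomere isoforms on each of the 4 arrays, 1 point per array, with experiment 1 in red, experiment 2 in blue, siFxr1 as circles and siControl as squares. Early (Myh3 to Chrng), fast (Myh1 to Myl1) and slow (Myh7 to Tnnc1) isoforms are all represented among those higher in experiment 1, Myl3 stays near background, and Myh2 and Myl2, which were not tested, are not drawn. Chrng, drawn with the early isoforms, is an acetylcholine receptor subunit and not a sarcomere protein.

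Promoter sequence of the contractile genes was read because E-boxes, the sites of the MyoD family, and CArG boxes, the sites of serum response factor, are known elements of muscle promoters. RefSeq windows on GRCm38.p6, from 250 bases before to 50 after a gene's start, were found for 92 of the 125 contractile genes. CAGCTG, which reads the same on both strands, was in 31 of these 92 windows, or 33.7%, and in 16.1% of all 27025 genes with a window. CACCTG on either strand was in 25% and 20%, and CANNTG, which contains both, in 80.4% and 72.1%. The CArG box was in 9.78% of the contractile windows and in 1.57% of all. Stretches of 30 bases around matches in the promoters of 3 label markers are shown 5′ to 3′ on the strand of the gene, with the match in capitals, because these genes carried the first result above. The lines for Acta1 are at chr8:123894979-123895008 and chr8:123894829-123894858 on the minus strand. The Tnnt2 window held 2 matches of CAGCTG and 1 of CACCTG, of which the CAGCTG nearer the start is shown, at chr1:135836165-135836194 on the plus strand, and the match of Actc1 is at chr2:114052903-114052932 on the minus strand.
Acta1 E-box: gggaggggcagaCAGCTGgggatactctcc
Acta1 CArG box: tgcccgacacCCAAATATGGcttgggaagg
Tnnt2 E-box: gctttatctgagCAGCTGgaggaccacatg
Actc1 CArG box: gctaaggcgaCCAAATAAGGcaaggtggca
The windows of Myog and Myh3 held 0 matches of CAGCTG and 0 of CACCTG or the CArG box. A match is a description of the sequence, and binding was not measured. Srf, the serum response factor, was higher in experiment 1, at 12.96 and 12.46 against 11.63 and 11.40, a difference of 1.19 (limma adjusted p = 0.031). Myod1 differed by 0.41 and did not pass the test (limma adjusted p = 0.320). Whether the level of either factor is linked to the signals of the contractile genes was not tested.

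Of 25 tested myogenic factors and partners, 5 were higher and 1 was lower in experiment 1, or 24% called against 12.3% of all genes, and their median was 0.10 beside 0.05 for all genes. Beside Myog and Srf, the higher members were Tead4, a factor of muscle-specific promoters, at 1.77, the methyltransferase Smyd1 at 1.31 and Lmod3, a thin filament protein that is also on the list above, at 1.96. Hdac4, a deacetylase that restrains Mef2 factors, gave 10.26 and 10.55 in experiment 1 and 11.55 and 12.03 in experiment 2, a difference of -1.38 (limma adjusted p = 0.021). Mef2a gave 0.64 and did not pass the test (limma adjusted p = 0.127). Under normexp background correction, with no background correction and in the authors' table, 5 of the 25 were higher and 4 lower.

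Of 20 tested repressors of myogenesis, 4 were higher in experiment 1 and 0 were lower, or 20% against 6.32% of all genes called higher, while their median was -0.07, or 0.30 under 75th percentile scaling. Mdfi, an inhibitor of the MyoD family, gave 9.75 and 7.67 in experiment 1 and 6.72 and 4.37 in experiment 2, a difference of 3.16, with 1 array of experiment 2 above background. The other 3 are Notch targets. Heyl differed by 3.14, Hey1 by 1.99 and Hes1 by 1.68. Under normexp background correction 5 of the 20 repressors were higher and 2 lower. With no background correction, and in the authors' table, 5 were higher and 3 lower.

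Mymk (myomaker) stood at 12.56 and 12.83 in experiment 1 and at 9.995 and 11.03 in experiment 2, a difference of 2.18 (limma adjusted p = 0.011). Mymx (myomixer), its partner in the fusion of myoblast membranes, stood at 14.91 and 14.75 against 12.94 and 11.65, a difference of 2.53 (limma adjusted p = 0.011). Cav3, the caveolin of muscle, differed by 1.89 and Dysf, a membrane repair protein, by 1.78. In all, 6 of 29 tested fusion genes were higher and 1 was lower, or 24.1% called against 12.3% of all genes. The lower member was Myof, a ferlin of fusing myoblasts, at -1.41, and 4 members were lower in the authors' table or with no background correction. The list median was -0.05, and the members that did not pass the test lay between -0.83 and 0.40.

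Of 15 tested acetylcholine receptor and endplate genes, 3 were higher in experiment 1, 1 was lower and 11 did not pass the test, or 26.7% called against 12.3% of all genes. Their median was 0.45, with 0.01 in siFxr1 and 0.78 in siControl. Dok7, which activates the MuSK kinase, gave 9.07 and 9.10 in experiment 1 and 5.97 and 5.8 in experiment 2, a difference of 3.20 ± 0.24 (SE, limma adjusted p = 0.0054). Chrng, the receptor subunit of fetal muscle, differed by 1.69 and Colq, the collagen tail of acetylcholinesterase, by 1.59. Utrn, the dystrophin relative utrophin, was lower in experiment 1, at -2.25 (limma adjusted p = 0.015). Its probe starts at base 7910 of the mRNA. Over genes with probes at 6000 to 8000 bases the median was -0.26, with 11.4% called lower and 5.45% higher.

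Of 28 tested muscle energy metabolism genes, 10 were higher in experiment 1 and 1 was lower, or 39.3% called against 12.3% of all genes, with a median of 0.75. Cox8b, a respiratory chain subunit of muscle and brown fat, gave 13.29 on both arrays of experiment 1 and 10.36 and 10.08 in experiment 2, a difference of 3.07. Ckm, the creatine kinase of muscle, differed by 2.82, Cox6a2 of the same respiratory complex as Cox8b by 2.80, and the oxygen store myoglobin (Mb) by 2.48. The AMP deaminase Ampd3 was lower, at -1.50.

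The genes of DNA replication and mitosis were not called as a group between the experiments. Of 68 tested members, 1 was higher, 1 was lower and 66 did not pass the test, or 2.94% called against 12.3% of all genes. Mki67, the proliferation antigen, was lower in experiment 1, with 12.98 and 13.50 against 14.47 and 15.61, a difference of -1.80 (limma adjusted p = 0.015). E2f2, a factor of S-phase genes, was higher by 1.12 (limma adjusted p = 0.045). Within the conditions the list ran in opposite directions, with a median of 0.15 in siFxr1, where 40 of 68 members were higher in experiment 1, and of -0.47 in siControl, where 55 of 68 were lower. Its fitted median was -0.17, and it became 0.21 under 75th percentile scaling. Top2a, which untangles replicated DNA, gave -0.35 in siFxr1 and -1.46 in siControl. Of 22 tested genes of cell cycle exit, 1 was called, the forkhead factor Foxo4. It was at least 3.0-fold higher in experiment 1 on average over the conditions, since neither array of experiment 2 was above background for it. This was 4.55% called against 12.3% of all genes. Under 75th percentile scaling 6 of the 22 were higher and 2 lower.

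A gene's difference also moved with the place of its probe in the transcript. The array's annotation gives each probe's start, counted in bases from the 5′ end of its RefSeq mRNA. The median difference was 0.25 over the 778 genes whose probe started within the first 500 bases, fell to 0.02 over the 2801 genes at 2000 to 3000 bases, and was -0.66 over the 270 genes whose probe started beyond 8000 bases. Of these 270 genes, 93 were lower in experiment 1, or 34.4%, and 4 were higher, or 1.48%. In the first 500 bases 3.21% were lower and 6.94% higher. The trend was present within siFxr1, from 0.26 to -0.77, and within siControl, from 0.20 to -0.63. The RNA integrity number was 8 for siFxr1 in experiment 1, 9 for siFxr1 in experiment 2 and 9 on both siControl arrays. The cause of the trend was not tested.

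Named genes with such probes included Mki67, whose probe started at base 9895, Lama2 at 9364 and the matrix genes Fbn1 at 9443 and Hspg2 at 14023. Dync1h1, the heavy chain of the dynein motor, was also among them, at -2.42, and was picked after its value was seen. The contractile genes with probes beyond 8000 bases were 7, and 0 of them were called higher. Titin (Ttn) gave -0.26, nebulin (Neb) -0.80 and the calcium release channel Ryr1 0.26, and none of these 3 passed the test. With probes that start beyond 4000 bases left out of the fit, 46 of 90 contractile genes were higher and their median was 1.20. With the median of its position bin subtracted from each gene, the contractile median was 1.23 and that of DNA replication and mitosis was -0.20. What the position trend adds to any single gene was not tested.

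**Figure D5:**
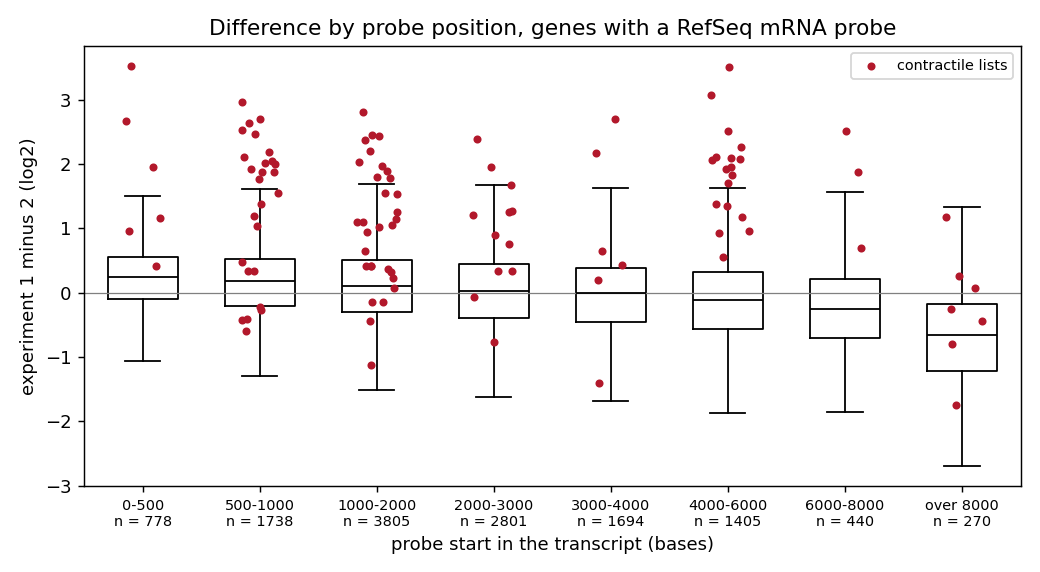
Experiment 1 minus experiment 2 on the log2 scale (vertical axis) by the start of the probe in its RefSeq mRNA (horizontal axis, bases), with boxes for the quartiles, whiskers to 1.5 times their range, points beyond the whiskers not drawn for all genes, and every contractile gene as a red point. The bin medians run from 0.25 to -0.66, and 0 of 7 contractile genes were called higher in the last bin.

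The kind of probe moved with the result too. Probes for RefSeq mRNAs were called higher in 6.37% and lower in 6.06% of cases. Probes for cDNAs, ESTs or contigs were called lower in 33.9% and higher in 6.47%, and those for intergenic loci lower in 20.4% and higher in 12.3%. A probe above background on the 2 arrays of 1 experiment alone could be tested. Of all cDNA, EST or contig probes, 26% (siFxr1) and 26.8% (siControl) were above background in experiment 1, against 37.6% and 35.3% in experiment 2. For intergenic loci these shares were 24.7% and 25.6%, against 36% and 32.5%. The lower calls of each kind were not split by this. By the base composition of the probe, the median over all genes ran from 0.21 at up to 35% G and C to -0.12 above 50%. The contractile median lay between 1.15 and 1.82 in each of the 5 composition bins.

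Markers of other cell types were mixed in level. Of 31 listed for adipocytes, osteoblasts, chondrocytes, macrophages, endothelium, neurons and heart muscle, 12 were above background on all 4 arrays and 12 on none. Adipoq, Plin1, Ptprc, Adgre1, Col2a1, Acan, Ibsp and Alpl were above background on no array. Other markers of these lists were measured on all 4 arrays, with Fabp4 of adipocytes between 7.93 and 10.13, Csf1r of macrophages between 9.68 and 11.12, Cd14 between 10.84 and 12.02 and Kdr of endothelium between 11.58 and 12.07. None of these 4 passed the test between the experiments. Myh6, which is also on the thick filament list, was the 1 member higher in experiment 1, with 1 array of experiment 2 above background. The 4 that were lower were Sox9, the cartilage factor, at -2.52, the synaptic protein Snap25 at -2.20, the endothelial Pecam1 at -1.35, with 1 array of experiment 1 above background, and the bone factor Runx2 at -1.01. Over all tested genes 6.32% were called higher and 5.96% lower. Those of the 31 that were above background on fewer than 2 arrays were not tested. The summed signal of the 7 myoblast markers was 17.09 and 17.12 on the log2 scale in experiment 1 and 16.81 and 16.61 in experiment 2, and that of the 5 myotube markers 18.11 and 18.25 against 16.17 and 16.27.
The summed signal of the 3 chondrocyte markers was 8.78 and 8.27 in experiment 1 and 11.36 and 10.51 in experiment 2. Sox9 was the only 1 of them above background, at 8.61 and 8.16 against 11.33 and 10.48. The sum of the 4 neuron markers was 12.17 and 11.93 against 13.58 and 13.74, with 2 of them, Snap25 and Tubb3, above background on all 4 arrays. Tubb3 differed by -0.33 and did not pass the test (limma adjusted p = 0.380), and Rbfox3 and Syt1 were not tested. The shift of the sum was thus mostly that of Snap25, at -2.20. Whether any of these signals came from such cells was not tested.

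Of 26 tested interferon response genes, 0 were higher in experiment 1, 5 were lower and 21 did not pass the test, so that 19.2% were called lower against 5.96% of all genes. Their median was -1.17, and it was -2.20 in siFxr1 and -0.41 in siControl, each from 1 array against 1. In siFxr1 25 of the 26 were lower, and in siControl 18. Ifit1, a sensor of foreign RNA, was not above background in experiment 1 and stood at 10.57 in siFxr1 and 6.92 in siControl of experiment 2. On average over the 2 conditions it was at least 13.1-fold lower in experiment 1 (limma adjusted p = 0.050). The conditions were unlike, with signals that differed by -7.70 in siFxr1 and by -2.21 in siControl. Oasl1, of the oligoadenylate synthetase family, gave 4.50 and 5.59 in experiment 1 and 10.704 and 7.83 in experiment 2, with a fitted difference of -4.22 (limma adjusted p = 0.035). Only 1 array of experiment 1 was above background for it. Isg15, a ubiquitin-like protein, gave -4.25 in siFxr1 and -1.17 in siControl and did not pass the test (limma adjusted p = 0.058). Under 75th percentile scaling 16 of the 26 were called lower and the median was -1.54. The disagreement of the conditions is the residual of the model, so it has no test of its own.

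Of 29 tested genes of the unfolded protein and ATF4 response, 5 were higher and 0 were lower, or 17.2% against 6.32% of all genes called higher, with a median of 0.42. Chac1, which degrades glutathione, gave 13.00 and 13.08 in experiment 1 and 11.05 and 10.16 in experiment 2, a difference of 2.43 (limma adjusted p = 0.010). The ATF4 target Trib3 differed by 2.18, Mthfd2 of mitochondrial folate metabolism by 1.78 and the chaperone Dnajb9 by 1.53. Under 75th percentile scaling 16 of the 29 were higher, with a median of 0.90.

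Of 29 tested hypoxia and glycolysis genes, 1 was higher and 6 were lower in experiment 1, or 24.1% called against 12.3% of all genes. Under 75th percentile scaling 2 were higher and 3 lower. The lactate transporter Slc16a3 gave 9.94 and 10.48 in experiment 1 and 11.37 and 13.56 in experiment 2, a difference of -2.25 (limma adjusted p = 0.027). The glycolytic enzyme Pfkl gave -1.86, the carbonic anhydrase Car9 -1.71, with 1 array of experiment 1 above background, and hexokinase Hk1 -1.31, while the peptide hormone Adm was higher by 2.05. The list median was -0.51, and 0.01 under 75th percentile scaling. Of 29 cholesterol and fatty acid synthesis genes, 2 were lower, Fasn at -1.35 and Acaca at -1.18, both enzymes of fatty acid synthesis, and 0 were higher, or 6.9% called lower against 5.96% of all genes. The probes of both start beyond 8000 bases.

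Of 37 tested matrix and smooth muscle type contractile genes, 5 were higher in experiment 1, 3 were lower and 29 did not pass the test, or 21.6% called against 12.3% of all genes, with a median of -0.07, or 0.27 under 75th percentile scaling. The smooth muscle proteins Cnn1, Tagln and Acta2 were higher by 2.24, 1.59 and 1.18, as were the matricellular Ccn2 by 1.53 and the collagen Col5a2 by 1.30. The lower members were the microfibril gene Fbn1 at -2.04, fibronectin (Fn1) at -1.27 and the crosslinking enzyme Lox at -1.09. The probes of Fbn1 and Fn1 start at bases 9443 and 8233, in the bin where 34.4% of all genes were lower. Under 75th percentile scaling 10 of the list were higher and 3 lower.

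Of 30 tested members of the IGF, FGF and TGF-beta families, 3 were higher and 4 were lower, or 23.3% called against 12.3% of all genes, with a median of -0.11. Under 75th percentile scaling 6 were higher and 2 lower, with a median of 0.30. The hormone Fgf21 stood at 9.21 and 10.16 in experiment 1 and at 3.15 and 5.08 in experiment 2, where 1 array was above background, with a fitted difference of 5.57 ± 0.32 (SE, limma adjusted p = 0.0054). The myostatin antagonist Fst was higher by 1.23 and Tgfb2 by 1.13. Hgf, which activates satellite cells, was lower at -1.55, and Fgf7, an epithelial growth factor, at -1.52. Of 29 immediate early and serum response genes, 4 were higher and 2 lower, or 20.7% called against 12.3% of all genes, and 5 higher and 6 lower in the authors' table. Among them were the signalling inhibitor Spry2 at 1.75, the stress factor Atf3 at 1.73 and Ier3 at -1.44.

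Among genes above background on all 4 arrays, the 10 with the largest positive differences included Mylpf and Myh1. The others were Tox4 at 3.80, whose second probe had the opposite sign, Optc of the matrix at 3.73, Mid1 at 3.65, Fndc5, the precursor of irisin, at 3.63, Islr2 at 3.52, the integrin chain Itgb6 at 3.51, C1qtnf3 at 3.39 and Nmrk2, a nicotinamide riboside kinase of muscle, at 3.33. The largest negative difference was that of Hmox1, the haem oxygenase, which gave 10.31 and 9.95 in experiment 1 and 15.07 and 14.18 in experiment 2. This was a difference of -4.49 ± 0.26 (SE, limma adjusted p = 0.0054). The homeobox gene Barx2 followed at -3.86, with the acute phase gene Saa3 at -3.42, the lipoprotein receptor Lrp1 at -3.27 and Hspg2 at -2.98. The probes of Lrp1 and Hspg2 start at bases 14472 and 14023, in the bin where the median over all genes was -0.66. The other 5 were Ssxb10, Ssxb1, Ssx9, Ssxb9 and Ssxb8, between -3.42 and -2.98. These 5 are near-identical copies on the X chromosome, so their probes may read the same transcripts and are uncertain as separate genes.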

How the data were processed

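Total RNA of 4 C2C12 cultures was labelled with Cy3 and hybridised to one-colour Agilent mouse arrays. The authors deposited each array's spot intensities from Agilent Feature Extraction 10.7.3.1, background-corrected and not normalized between arrays, and a table of normalized intensities, used as an alternative. The submitters' processing notes name limma. The number of arrays, 4, limits the precision.

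Intensities were taken to log2 and quantile-normalized over 59305 non-control spots in R 4.3.3. Outlier spots were set to missing and spots averaged to 55681 probes. A probe was tested when well above background (at least 0.5 of its spots) on at least 2 arrays, a filter the methods of the study do not use. The model of experiment with the condition as a block was fitted with limma 3.58.1 (lmFit, eBayes), with 1 residual and 4.22 prior degrees of freedom, and Benjamini-Hochberg adjustment over 28011 probes. Genes were read at their brightest tested probe, with names from RefSeq accessions for 26413 probes and from the array otherwise.

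The condition and not a replicate number pairs the arrays of the experiments. No pair of arrays held identical values (0). On simulated data with 5602 of 28011 probes changed by 2 (log2), the fit recovered 98.3%, with 5.64% false among its calls. The errors were independent and drawn from limma's own fitted prior, with no slide effect or trend by probe position. In the real data the median absolute difference over tested genes was 0.42. The simulation therefore checks that the fit runs correctly and gives no error rate for the real calls.

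The named genes were the 5 label markers, Fxr1, Cdkn1a, up to 4 called members of each list with the largest difference and up to 2 that opposed its median, and the 10 largest in each direction. The members, lists and tests were chosen with earlier results of these data known. Alternatives changed the scaling, background correction, filter, model and arrays.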

Additional observations from a re-analysis of the deposited data

Results flagged for a closer look

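For 5 results the difference between the experiments ran one way in siFxr1 and the other way in siControl. Each rests on 1 array against 1 per condition and the difference between the conditions was not tested. The median of DNA replication and mitosis genes was 0.15 in siFxr1 and -0.47 in siControl, which is 0.62 apart. For matrix and smooth muscle type contractile genes the medians were -0.13 and 0.11, or -0.24 apart. Repressors of myogenesis had medians of 0.03 and -0.15, or 0.18 apart, and myoblast fusion genes of -0.05 and 0.03, or -0.080 apart. Fxr1 gave -0.62 in siFxr1 and 0.14 in siControl, or -0.76 apart.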

How the results depend on the processing

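The number of probes called between experiments was 5035. It became 8942 with 75th percentile scaling, 7875 with a variance trend, 1683 at a B value above 0, and 0 with no filter on dim probes, where 55627 probes were tested, limma's smallest adjusted p was 0.108, 11166 had an unadjusted p under 0.05 and 664 had B above 0. With no replicate block, that is with the condition that pairs the arrays left out, 1987 were called. Without 1 array each, the count ran from 0 to 812, with 4898 to 6947 at an unadjusted p under 0.05. At least 2-fold the same way in both conditions were 4024 probes. Of the calls, 41.9% were higher in experiment 1, and 52.7% when probes had to be above background on all 4 arrays. The contractile median of 1.26 was 1.43 with 75th percentile scaling, 1.09 with normexp, 1.09 with no background correction, 1.09 in the authors' table, 1.20 with no filter and 1.20 with probes beyond 4000 bases left out, and without 1 array each it ran from 1.19 to 1.34. The proliferation median of -0.17 became 0.21 with 75th percentile scaling, and without 1 array each ran from -0.51 to 0.18. The difference of Fxr1, which was not called, changed sign to 0.031 with 75th percentile scaling, and without 1 array each ran from -2.09 to 1.60. No called named gene of 91 changed sign (0), but with no replicate block 38 of them lost the call, and all 91 lost it with no filter and in 3 of the 4 fits that left out an array (55 of 91 in the fit without siFxr1 of experiment 2). The 2 alternatives on probe position were chosen after seeing the data. The cause of these changes was not tested, except that with no filter more probes were tested and that 3 arrays leave the condition out.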

Other observations

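The lists in this paragraph were chosen after values were seen, so their counts describe and test nothing. Of all genes, 6.32% were called higher and 5.96% lower. Of 14 tested NF-kB and acute phase genes, 0 were called higher and 7 lower in experiment 1. Their median was -1.12, and it was -1.15 in siFxr1 and -1.12 in siControl. Saa3 gave -3.42, Nfkbiz, a nuclear NF-kB cofactor, -2.65, the complement protein C3 -2.41 and the chemokine Cxcl1 -1.57. Il6 gave 0.57 and did not pass the test (limma adjusted p = 0.183). Of 12 tested NRF2 targets, Hmox1 was the 1 lower gene, while Nqo1 gave -0.20, Gclm -0.10 and Srxn1 0.77, none past the test. Of 9 tested Notch ligands and receptors, the ligand Dll4 was the 1 called. On average over the conditions it was at least 19.1-fold lower in experiment 1, where it was above background on neither array. Its signals in experiment 2 were 9.00 in siFxr1 and 9.35 in siControl. Dll1 gave 1.10 and Jag1 0.70, and neither passed the test.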
